A study of Homo sapiens with 9 samples.

Results

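Transcripts of 10 genes of the DNA replication machinery were examined on lists of RNA editing sites. The sites were left by the proteins GPATCH8 and SUGP1, each fused to the RNA-editing enzyme ADAR. The genes were MCM3, MCM5, MCM7, MCM8, RFC3, RFC5, POLA2, POLD3, POLE2 and CDC45. They are 10 of the 1513 genes with an entry on either list, found by gene symbol. They were chosen because they stood on a list, so that being listed and the number of sites are given as a description, with no test. Everything measured here is an editing site in an RNA, not the activity or amount of the replication protein that the RNA encodes.

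The lists came from TRIBE-seq in 293T, a line derived from human embryonic kidney and expressing SV40 large T antigen, labelled as wild type for SF3B1 in all samples. In this assay an RNA-binding protein carries the deaminase part of Drosophila ADAR, in a hyperactive form. Adenosines close to a bound site become inosines, which sequencing reports as guanosines. GPATCH8-ADAR (2 libraries) and a non-targeting control fusion with MCP (2 libraries) were sequenced in run 1. ADAR-SUGP1 (2 libraries), its MCP control (2 libraries) and untransfected cells (1 library) were sequenced in run 2, which makes 9 libraries in 5 groups. The fusions were expressed from transfected plasmids, and living GFP-positive cells were sorted 24 h later, so the proteins were not at their natural level. Each deposited list holds sites found in both libraries of a fusion after editing in the controls had been taken away. It gives 1 number of sites per region of each transcript, without replicate values, positions, editing levels or coverage, and therefore no difference between the fusions has a replicate check. Since each fusion had its own run, fusion and run cannot be told apart. Because expression is not in the tables, the cell type could not be checked from its markers, and whether an unlisted gene was expressed or read deeply enough to be called is unknown.

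In a dividing cell, the MCM2-7 ring of 6 related subunits is loaded at replication origins and becomes the replicative helicase when CDC45 and the GINS complex join it, an assembly called CMG. The clamp loader replication factor C then places the PCNA ring on primed DNA, polymerase alpha with primase makes the primers, and polymerases delta and epsilon copy the strands. Transcripts of many of these genes rise before S phase through E2F transcription factors, and SV40 large T antigen is known to free E2F from its inhibitor RB. GPATCH8 and SUGP1 are G-patch proteins tied to branchpoint choice by SF3B1, so their contacts with pre-mRNA can fall in introns.

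The gene of the 10 with the most sites on one list was MCM7, with ADAR-SUGP1, and its introns are also known as the home of the miR-106b/25 microRNA cluster. In the RefSeq gene table of GRCh38.p14, MIR106B, MIR93 and MIR25 lay within MCM7, and no other of the 10 genes held a microRNA gene. The mature forms below, from RefSeq, are shown because they are named products of MCM7 introns, the kind of region in which its editing sites were counted. Capitals mark the seed, bases 2 to 8.
hsa-miR-106b-5p: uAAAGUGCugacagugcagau
hsa-miR-93-5p: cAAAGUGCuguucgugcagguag
hsa-miR-25-3p: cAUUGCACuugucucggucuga
The first pair share the seed AAAGUGC, and miR-25-3p has AUUGCAC. On GRCh38.p14 they lie on the minus strand at chr7:100094043-100094063, chr7:100093815-100093837 and chr7:100093571-100093592. The editing lists were made on hg19 and give no positions, so the distance from any MCM7 site to these sequences is unknown. None of the 3 microRNA genes was itself on either list.

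With ADAR-SUGP1 all 10 genes were listed, and with GPATCH8-ADAR only POLE2, MCM8 and RFC3 were. Among all genes on either list, 73.4% were listed with ADAR-SUGP1, 37.3% with GPATCH8-ADAR and 10.7% with both. Of the genes listed with GPATCH8-ADAR, 28.7% were also on the ADAR-SUGP1 list. The 10 genes carried 21 sites with ADAR-SUGP1, which is 1.55% of its 1358 sites, and 4 sites with GPATCH8-ADAR, which is 0.502% of its 797. These are sites in the transcript body, meaning UTRs, coding sequence and introns; all 25 were in introns, and all 16 entries were protein-coding transcripts.

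Of the helicase ring itself, 3 of 6 subunits were listed with ADAR-SUGP1 and 0 with GPATCH8-ADAR. MCM7, a subunit of the ring, had 5 intronic sites with ADAR-SUGP1, all counted for ENST00000489841.1. MCM5, which with MCM2 forms the gate of the ring, had 3 intronic sites in ENST00000216122.4. A second MCM5 transcript, ENST00000451351.1, was listed with 1 stop-codon site and no site in its body, the only site of any of the 10 genes outside the transcript body. MCM3 had 1 intronic site in ENST00000229854.7. The ring thus held 9 body sites with ADAR-SUGP1, 5 of them in MCM7, while MCM2, MCM4 and MCM6 were on neither list. The helicase activator CDC45 had 1 intronic site with ADAR-SUGP1, in ENST00000407835.1. With CDC45, 4 of the 11 CMG subunits were listed with ADAR-SUGP1, and none of GINS1, GINS2, GINS3 and GINS4 was on either list.

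MCM8, a relative of the ring subunits that works with MCM9 in homologous recombination and is not part of the MCM2-7 ring, was listed with both fusions. It had 1 intronic site with each, in the same transcript, ENST00000378883.1. MCM9 was on neither list. Among MCM family genes MCM8, with its 1 site, was the one found with GPATCH8-ADAR. That list held 37.3% of all genes on either list, so nothing is read from MCM8 lying outside the replicative ring.

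The clamp loader had 2 of 5 subunits listed with ADAR-SUGP1 and 1 with GPATCH8-ADAR. RFC3, one of its small subunits, had 4 intronic sites with ADAR-SUGP1, 3 in ENST00000380071.3 and 1 in ENST00000434425.1. With GPATCH8-ADAR it had 1 intronic site, in ENST00000380071.3 too. RFC5, another small subunit, had 1 intronic site with ADAR-SUGP1 in ENST00000229043.3 and was not listed with GPATCH8-ADAR. RFC1, RFC2 and RFC4 were on neither list.

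Each of the 3 replicative polymerases had 1 of its 4 subunits on the lists, and in each it was an accessory subunit. With only 3 such genes, chosen because they were listed, nothing is read from the kind of subunit. POLD3, an accessory subunit of polymerase delta that also serves in break-induced replication, had 3 intronic sites with ADAR-SUGP1 in ENST00000263681.2. POLA2, the B subunit of polymerase alpha, had 1 in ENST00000265465.3. POLE2, the B subunit of polymerase epsilon, was the one gene of the 10 with more sites with GPATCH8-ADAR when transcripts were summed. It had 2 intronic sites there, 1 in ENST00000216367.5 and 1 in ENST00000554851.1, against 1 with ADAR-SUGP1 in ENST00000554851.1. The 2 could be a single site counted for both transcripts, and with 1 transcript alone POLE2 had 1 site with each fusion. The catalytic genes POLA1, POLD1 and POLE were on neither list.

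**Figure D1:**
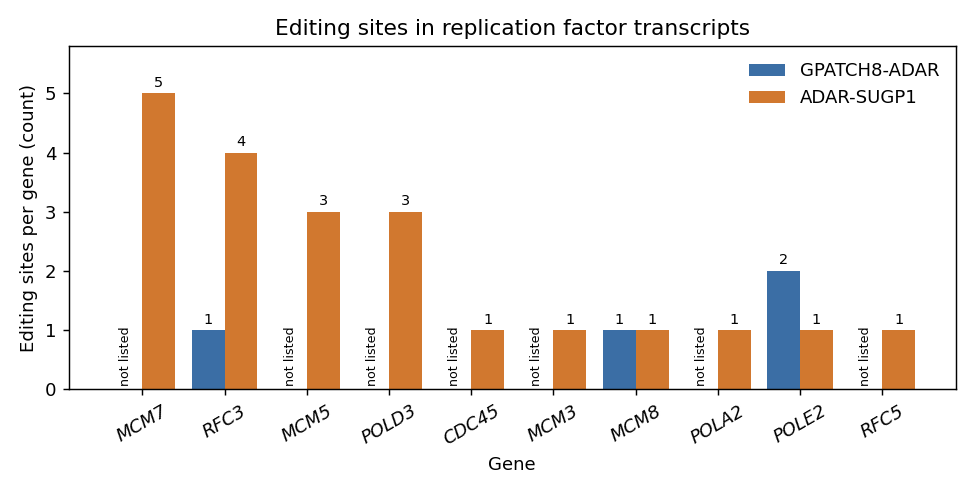
Editing sites per gene (count, vertical axis) for the 10 replication genes with GPATCH8-ADAR and ADAR-SUGP1; each bar is the authors' single count summed over the transcripts of the gene, with no replicate error. MCM7 has the most sites with ADAR-SUGP1, 5, and 7 of the genes are not listed with GPATCH8-ADAR. Of all 1513 genes on either list, 37.3% were listed with GPATCH8-ADAR.

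In counts summed over transcripts, the 3 genes found with both fusions differed in which fusion gave more sites. RFC3 had 4 sites with ADAR-SUGP1 and 1 with GPATCH8-ADAR, MCM8 had 1 and 1, and POLE2 had 1 and 2. Together they held 6 sites with ADAR-SUGP1 and 4 with GPATCH8-ADAR, a difference without a replicate check. Among all 162 genes listed with both, 23.5% had the larger count with ADAR-SUGP1 and 25.9% with GPATCH8-ADAR. The other 7 genes held 15 sites with ADAR-SUGP1.

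The listed transcripts overlapped as well. Of 13 distinct transcripts of the 10 genes, 3 were on both lists, and these were 1 each of RFC3, MCM8 and POLE2. They were 3 of the 4 transcripts of these genes with GPATCH8-ADAR, where 156 of all 612 (25.5%) were on both lists, and 3 of the 12 with ADAR-SUGP1. All 10 genes were listed with ADAR-SUGP1, which does not hold for all genes with GPATCH8-ADAR. Nothing is therefore read from the comparison with the 612. All 3 shared genes therefore had an identical transcript with both fusions, as did 92.0% of all genes listed with both. The same transcript does not show the same site, because the tables hold no positions. For RFC3 and POLE2, a site that lies in introns of both transcripts could have been counted for each. With the transcript of most sites alone, RFC3 had 3 sites with ADAR-SUGP1 and POLE2 had 1 with GPATCH8-ADAR. POLE2 then had as many sites with one fusion as with the other.

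The number of sites varied widely among the 10 genes with ADAR-SUGP1. There were 6 genes with 1 site and 4 with at least 3, and the latter held 15 of the 21 sites. Those 4 genes had their sites in introns, and 4.86% of all genes listed with ADAR-SUGP1 had at least 3 intronic sites; the members were chosen with these counts known, so nothing is read from the comparison. MCM7 with 5 intronic sites had 3 genes above it among the 1110 genes of this list. RFC3 with 4, summed over 2 transcripts, had 6 above it. These ranks come from the same known counts and are a description only. With GPATCH8-ADAR none of the 10 genes had 3 or more, where 8.14% of its 565 genes did, and POLE2 with 2 had 46 genes above it.

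**Figure D2:**
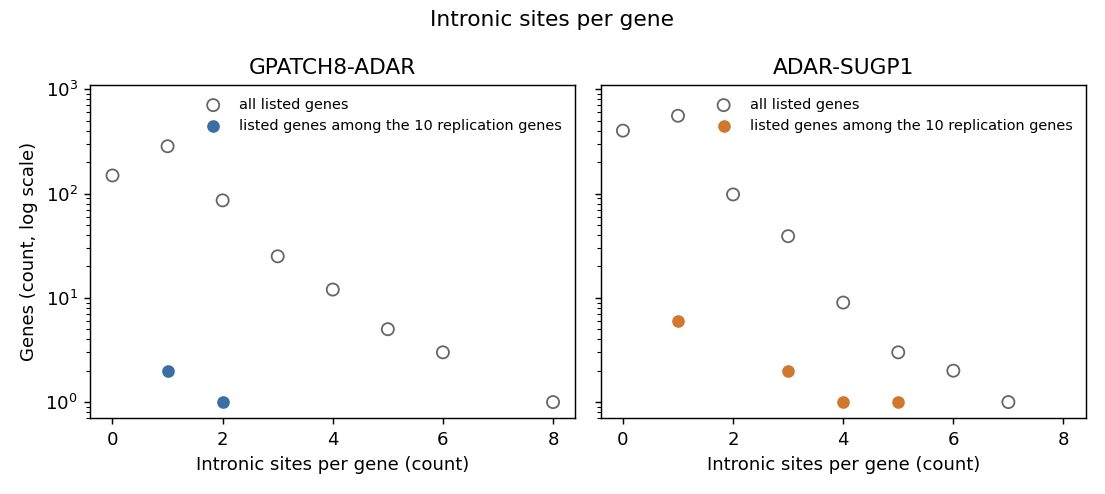
Number of genes (vertical axis, log scale) with a given count of intronic sites (horizontal axis) in each list; open circles are all listed genes and filled circles the listed genes among the 10 replication genes. With ADAR-SUGP1, 6 of the 10 sit at 1 site, and MCM7 at 5 sites has 3 genes beyond it. The 10 genes were chosen with these counts known, so nothing is read from their places.

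Within the transcript body, introns held every site of each of the 10 genes. With ADAR-SUGP1 21 of 21 body sites were intronic (100%, 95% exact binomial interval 83.9 to 100), beside 69.2% of all sites of that list. With GPATCH8-ADAR it was 4 of 4 (100%, same interval 39.8 to 100), beside 79.0%. The intervals cover counting error only and treat the sites of a gene as independent. Because the 10 genes were chosen with their sites known, the intervals are no test against the shares of all sites. Coding sequence, 5′ UTR and 3′ UTR each held 0 of 21 sites with ADAR-SUGP1, which allows a share of up to 16.1% by the same exact interval, and 0 of 4 with GPATCH8-ADAR, which allows up to 60.2%. Counted by gene, all 10 and all 3 listed members had only intronic body sites. The same held for 65.3% of the genes with a body site with ADAR-SUGP1 and 76.5% with GPATCH8-ADAR. No promoter site was counted for any of the 16 entries.

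The wider replication machinery was followed in a list of 100 genes by role, which includes the 10. With GPATCH8-ADAR 7 of the 100 were listed and with ADAR-SUGP1 20 were, 4 of them with both; 77 were on neither list. Of the 23 listed, 20 were thus found with ADAR-SUGP1, 7 with GPATCH8-ADAR and 4 with both, beside 73.4%, 37.3% and 10.7% of all 1513 listed genes, and nothing is read from these counts. Origin licensing had 4 of 16 genes with ADAR-SUGP1, the 3 ring subunits and ORC6, a subunit of the origin recognition complex with 2 intronic sites, and 0 with GPATCH8-ADAR. Helicase activation added DBF4B, an activator of the CDC7 kinase, with 1 site in a 3′ UTR and 1 in an intron, and TICRR, an origin firing factor, with 1 intronic site. Among clamp loaders, CHTF18 of the alternative loader had 1 intronic site, and ATAD5, which unloads PCNA, had 1 in its 3′ UTR, all with ADAR-SUGP1. Of the genes for Okazaki fragment processing and single-stranded DNA binding, the RNase H2 subunits RNASEH2A and RNASEH2C had 1 intronic and 1 coding site with ADAR-SUGP1. RRM2, a subunit of ribonucleotide reductase, had 1 intronic site with the same fusion.

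Other DNA polymerases of the list were found with either fusion. POLG2, the accessory subunit of the mitochondrial DNA polymerase, had 5 intronic sites with GPATCH8-ADAR alone, as many as MCM7 had with ADAR-SUGP1 alone. POLG, the catalytic subunit of the same enzyme, had 2 intronic sites with ADAR-SUGP1 alone. The translesion polymerase POLH and the fork remodeller ZRANB3 had 1 intronic site each with GPATCH8-ADAR. POLM, a polymerase of end joining, was on both lists with 1 intronic site with GPATCH8-ADAR and 1 in a 3′ UTR with ADAR-SUGP1. The 4 histone chaperone genes of the list had no entry.

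**Figure D3:**
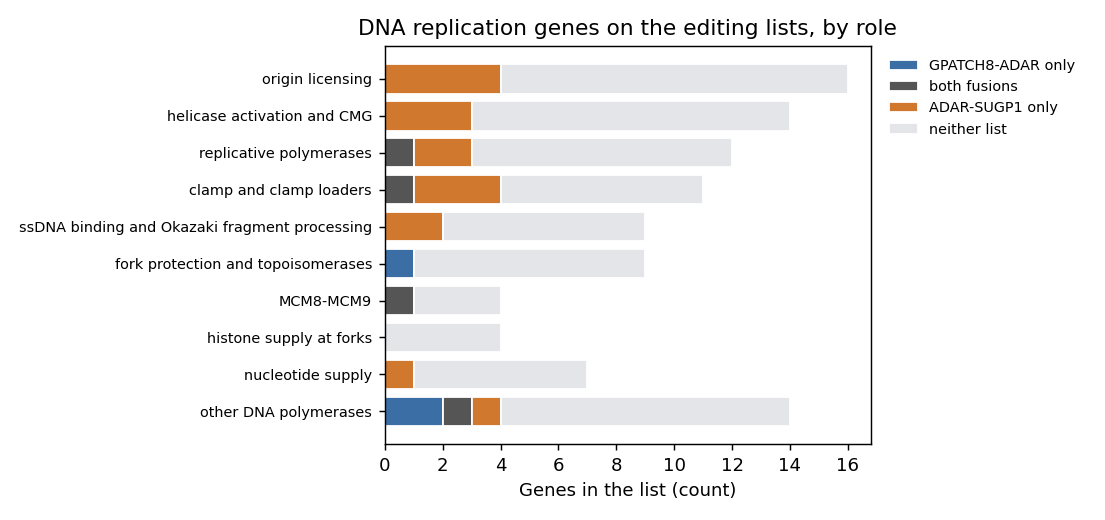
Genes of the 100-gene replication list (count, horizontal axis) by role, divided into those listed with GPATCH8-ADAR alone, both fusions, ADAR-SUGP1 alone or neither. Origin licensing and helicase activation have 4 and 3 genes with ADAR-SUGP1 alone and none with GPATCH8-ADAR. Of all 1513 listed genes, 73.4% were listed with ADAR-SUGP1, 37.3% with GPATCH8-ADAR and 10.7% with both, and nothing is read from the counts by role.

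Outside the 10 genes, 10 further genes of the list had 13 sites with ADAR-SUGP1, of which 9 were intronic (69.2%, 95% exact binomial interval 38.6 to 90.9), 3 lay in 3′ UTRs and 1 in coding sequence. The 4 further genes with GPATCH8-ADAR had 8 sites, all intronic. Within the transcript body, exonic sites were thus present among replication genes with ADAR-SUGP1, but in DBF4B, ATAD5, RNASEH2C and POLM and not in the 10 genes. Stop-codon sites, counted apart from the body, were present with ADAR-SUGP1 in 1 of the 12 transcripts of the 10 genes, the second one of MCM5, in 2 of 13 of the further list genes, 1 each of DBF4B and RNASEH2C, and in 146 of all 1340 (10.9%). These differences were not tested, because the 10 genes were chosen with their sites known.

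**Figure D4:**
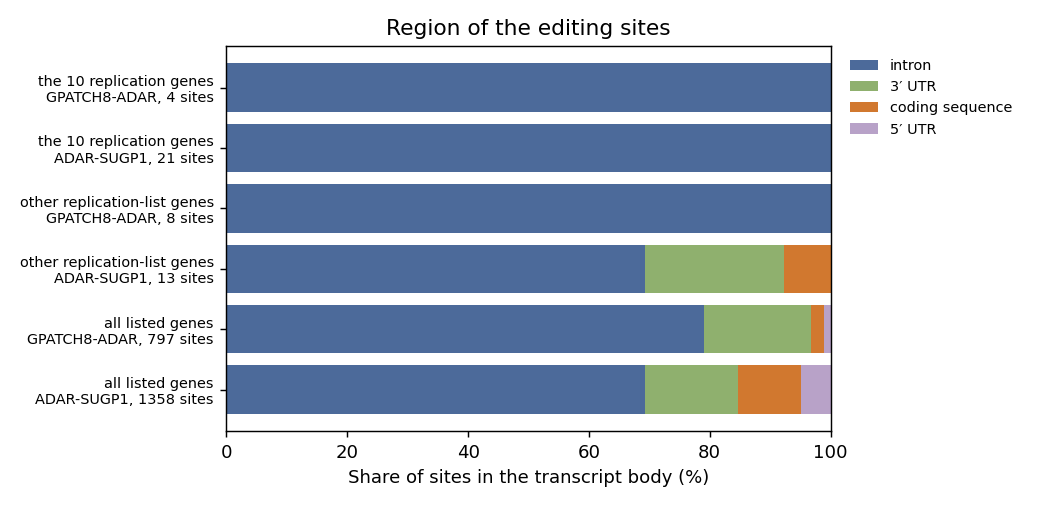
Share of transcript-body sites (percent, horizontal axis) in introns, 3′ UTR, coding sequence and 5′ UTR, for the 10 replication genes, the other genes of the replication list and all listed genes with each fusion. The 10 genes have intronic sites only, beside 69.2% of all sites with ADAR-SUGP1 and 79.0% with GPATCH8-ADAR.

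Patterns were compared across the 8 counts of body regions with both fusions. How rare a pattern is follows from counts known when the genes were chosen, so nothing is read from it. CPNE1, a copine, and INO80E, a chromatin-remodelling subunit, had counts identical to those of MCM7. MPV17, a mitochondrial membrane protein, came next with 4 intronic sites. RFC3 also had 2 identical genes, ENOSF1 and VOPP1, each with 1 intronic site on the GPATCH8-ADAR list and 4 on the other, and then came CPSF3L with 1 and 3. MCM5 and POLD3 had the same pattern as each other and each had 30 genes with identical counts, the first of the rest in alphabetical order being the lipid synthesis enzyme ACLY, the ATP synthase subunit ATP5B and the readthrough gene C15orf38-AP3S2. POLE2 had 19 genes with identical counts and MCM8 had 48. MCM3, RFC5, POLA2 and CDC45 shared the commonest of these patterns, a single intronic site with ADAR-SUGP1, so each had 451 identical genes.

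Sites of overlapping genes can be counted for the wrong one where strand is not used, and the sources used here do not say whether it was. In RefSeq's annotation of GRCh38.p14, 11 genes overlapped the 10, among them AP4M1 at MCM7, WSB2 at RFC5 and the antisense gene MCM8-AS1 at MCM8. None of the 11 was on either list, and MCM3, MCM5 and CDC45 had no overlapping gene. Within 5 protein-coding genes to either side, 7 of the 10 had a listed neighbour, as did 62.3% of the 1314 listed genes that could be placed. UFD1, a partner of the p97 ATPase that takes CMG off chromatin, stood next to CDC45 and had 1 intronic site with ADAR-SUGP1, listed under its older name UFD1L. LRR1, the substrate receptor of the ubiquitin ligase that marks MCM7 for CMG unloading, stood 4 genes from POLE2 and had 1 site outside introns with ADAR-SUGP1. UFD1 and LRR1 are named here because of their known part in CMG unloading. The other listed neighbours are given further below, and no link in function is read from any of them.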

How the data were processed

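The values are whole-number counts of called editing sites per Ensembl transcript, deposited as 1 table for each fusion; they are neither reads nor an abundance score. Per the file headers, a column each covers the promoter, both UTRs, the coding sequence, the stop codon, the introns and the transcript as a whole. Per the series' design text, endogenous editing and editing by the control fusion were subtracted and sites found in both replicates were kept, which favours deeply read transcripts. The submitters' processing notes name Trimmomatic, STAR and hg19; how sites were called, which annotation was used and whether strand was used is not given in the sources used here. The depth of each library is unknown. The GPATCH8-ADAR table held 572 blank rows, which were skipped.

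Site counts of all transcripts of a gene were added (Python 3.11.15, pandas 2.3.3) and shares given with exact binomial (Clopper-Pearson) 95% intervals (scipy 1.17.1). A share of 0 was given the upper bound of that interval, since the totals are small. In all 612 and 1340 rows the whole-transcript count was the total of UTR, coding and intronic sites, with promoter and stop codon left out; it is called the transcript body. No test between the fusions was made, since each has 1 pooled list. Likeness between genes was the sum of absolute differences over 8 region counts, given for genes with at least 3 sites, with ties in alphabetical order. Named genes were the 10, all listed genes of the replication list, the nearest 3 by likeness, and listed neighbours. Summing and ranking were tested on simulated data. The RefSeq table of GRCh38.p14 was used only for names, neighbours, overlapping genes and the microRNA genes within the 10. RefSeq also gave the microRNA sequences. The genes and lists were chosen with earlier results of these data known. Alternatives were a minimum of 1 or 2 sites, protein-coding transcripts, 1 transcript per gene, added stop-codon and promoter sites, older symbols and leaving out the gene with the most sites.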

Additional observations from a re-analysis of the deposited data

How the results depend on the processing

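Of 35 recomputed values for 11 results, 29 stayed within 1.5 times the reported count or within the reported interval, and 6 moved. With at least 2 sites required, 1 of the 10 genes was listed with GPATCH8-ADAR, 4 with ADAR-SUGP1 and 0 with both, and of the 100-gene list 2 and 7. Without POLE2 the sites with GPATCH8-ADAR fell from 4 to 2. The intronic share was 100% under each alternative run for it. That was fixed in advance, since each kept all or some of the same body sites, all intronic. These shares are among the 29 values that stayed. Other values among the 29 were fixed in advance too. All 16 entries of the 10 genes were protein-coding, so keeping only protein-coding transcripts could not change their counts. Each of the 10 genes had a body site on every list that held it. A minimum of 1 site could therefore not change how many of the 10 were listed. Adding stop-codon sites was run for the number of sites only. With 1 transcript per gene there were 3 and 20 sites. Without MCM7 there were 16 with ADAR-SUGP1. No replicate could be left out and no count based on reads was possible. No paired analysis was possible because each table merges both libraries of a fusion into 1 count per region.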

Other observations

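None of 6 hematopoietic, 3 neural and 2 keratin marker genes was on either editing list, which says nothing of their expression. Beyond the genes named above, listed genes within 5 protein-coding genes of the 10 replication genes were N4BP2L2 near RFC3, with 2 intronic sites with GPATCH8-ADAR and 1 with the other fusion, and PEBP1 near RFC5, SPCS2 near POLD3 and VCPKMT near POLE2, with 1 intronic site each with GPATCH8-ADAR. SYVN1 near POLA2 and RPS29 near POLE2 had 1 intronic site each with ADAR-SUGP1, GP1BB near CDC45 had 1 site outside introns, and LAMTOR4 near MCM7 and SEPT5 near CDC45 were listed with a count of 0 in the transcript body.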
